A study of Mus musculus with 12 samples.

Results

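The 10 genes Adcyap1, Npy, Sst, Vip, Tac1, Cck, Crh, Penk, Pdyn and Vgf, which encode the precursors of neuropeptides, were followed in primary mouse oligodendrocyte progenitor cells (OPCs). They were taken from a list of symbols drawn up with earlier results of these data known, and each symbol matched 1 of the 55536 genes that had transcripts in the tables, so the members were 10 of 55536 genes. The cells came from the brains of mouse pups at P4 to P6, with several brains pooled per experiment and a different litter behind each replicate. They were isolated as GFP+ cells of a Sox10 reporter by FACS or with beads against CD140a, the PDGF receptor of OPCs, and which route gave which library is not stated in the sources used here. In the reporter, Sox10 drives Cre, so that GFP marks every cell with a Sox10 history and not OPCs only. All 12 libraries carry the label EAE, an induced autoimmune disease of adult mice, although the described source is cultured pup cells.

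Bulk RNA-seq was made from 4 groups of 3 libraries. Ctr received neither agent. EZH2i received EPZ011989, an inhibitor of the histone methyltransferase EZH2, at 1.5 µM for 4 days with renewal every 48 h. IFN-γ received the cytokine at 100 ng/ml for 6 h, and IFN-γ + EZH2i received the inhibitor for 4 days and then both agents for 6 h. Whether Ctr and EZH2i cultures also had a change of medium 6 h before collection is not given in the sources used here. All groups shared a proliferation medium with PDGFaa and bFGF. The design asks what removal of the H3K27me3 mark does to gene expression in OPCs, alone and together with IFN-γ.

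Neuropeptides are made as long precursors that enter the secretory pathway, are cut by prohormone convertases inside dense-core granules and are released on stimulation, after which they act through G protein-coupled receptors. Neurons and endocrine cells are their best known source, and in the cortex Sst, Npy, Vip, Cck and Crh each mark classes of interneuron, while Penk and Pdyn encode the opioid peptides enkephalin and dynorphin. EZH2 is the catalytic subunit of Polycomb repressive complex 2, which deposits H3K27me3 at silent developmental genes, often at promoters rich in CpG. Several precursor genes, Sst, Penk and Vgf among them, are textbook targets of cAMP signaling through CREB.

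RefSeq promoters (GRCm38.p6) were found for 7 of the 10 members, with 2 each for Adcyap1 and Pdyn. None was found for Crh, Penk or Vgf, so these were not searched. Each window held 300 bases, from 250 before to 50 after the RefSeq start. Windows of 3 members are printed here because these genes show the patterns described below, namely Sst for the change with IFN-γ, Adcyap1 for the change with EZH2i and Npy as a member at detectable level with no called change. Capitals mark the cAMP response element TGACGTCA in Sst and TATAAA in Adcyap1.
Sst, chr16:23890795-23891094, minus strand: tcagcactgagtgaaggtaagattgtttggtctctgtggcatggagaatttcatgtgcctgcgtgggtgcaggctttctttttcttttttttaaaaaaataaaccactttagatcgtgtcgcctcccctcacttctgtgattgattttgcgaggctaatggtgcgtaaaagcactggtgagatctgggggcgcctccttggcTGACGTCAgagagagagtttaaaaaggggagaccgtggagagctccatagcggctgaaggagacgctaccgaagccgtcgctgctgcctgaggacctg
Adcyap1 promoter 2, chr17:93198918-93199217, plus strand: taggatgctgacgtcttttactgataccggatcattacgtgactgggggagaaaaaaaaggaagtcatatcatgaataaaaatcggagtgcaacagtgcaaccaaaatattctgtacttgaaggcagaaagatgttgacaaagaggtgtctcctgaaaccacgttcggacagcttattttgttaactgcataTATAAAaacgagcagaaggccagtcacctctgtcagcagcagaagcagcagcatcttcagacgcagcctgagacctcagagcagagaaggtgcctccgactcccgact
Npy, chr6:49822460-49822759, plus strand: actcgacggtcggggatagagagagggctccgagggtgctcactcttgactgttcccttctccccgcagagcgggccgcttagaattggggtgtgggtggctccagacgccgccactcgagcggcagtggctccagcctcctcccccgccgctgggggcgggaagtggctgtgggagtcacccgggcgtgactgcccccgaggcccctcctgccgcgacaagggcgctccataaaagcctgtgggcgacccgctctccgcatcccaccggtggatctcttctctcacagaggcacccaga
Both strands were searched, and no 2 matches in a member's window overlapped. The Sst element began 48 bases before the start, and Sst was the only member of the 7 with this exact sequence. It was held by 1.79% of 32851 RefSeq promoters of the same length. Near matches were not searched. TGACGTCT, which differs in 1 base, is seen in the Vip window and in both Adcyap1 windows, and its share of all promoters was not counted. TATAAA was found in Adcyap1 promoter 2, 58 bases before the start, and 3 times in Vip, against 13.6% of all promoters. The number of CpG in a window was 24 in Npy, 22 in Tac1, 13 in Sst, 11 and 5 in the Pdyn promoters, 10 in Cck, 7 and 10 in the Adcyap1 promoters and 4 in Vip, beside a median of 7 over all promoters. These matches describe letters in the windows, and binding was not measured here.

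Library totals ranged from 17403896 to 66546017 counts, a 3.82-fold range, and the libraries numbered 3 were the deepest of each group. Levels are given as counts or as TMM-normalized counts scaled to a common library size (CPM). Tests are edgeR's quasi-likelihood tests in 1 fit of 12 libraries, and called means a Benjamini-Hochberg adjusted p under 0.05 over the 18995 genes tested. 8 of the 10 members passed the filter on low counts, and Vip and Cck did not. Adcyap1 passed only through the groups with EZH2i, and Sst and Pdyn only through those with IFN-γ. For these genes a called change with that agent could thus only be a rise. The litters differ between replicates, so the p-values measure the spread between pooled cultures.

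The cells had the markers of OPCs in every library: the summed level of 8 OPC markers ranged from 8800 to 8970 CPM in Ctr, from 7290 to 7910 in EZH2i, from 5650 to 7700 in IFN-γ and from 4660 to 5690 in IFN-γ + EZH2i. Of these markers, Pdgfra and Cspg4 were called lower in both IFN-γ comparisons, from 1510 ± 356 CPM in Ctr (SD, n = 3) to 716 ± 202 in IFN-γ for Pdgfra. The summed level of 13 neuron markers moved with IFN-γ: it ranged from 231 to 417 CPM in Ctr, from 311 to 480 in EZH2i, from 915 to 1810 in IFN-γ and from 1250 to 2170 in IFN-γ + EZH2i. Most of that increase was Tubb3, a neuronal tubulin, at 26.7 ± 6.47 CPM in Ctr and 916 ± 304 in IFN-γ. Tubb3, Stmn2 and Syt1 were the 3 of the 13 neuron markers called with IFN-γ, all higher, against Ctr and against EZH2i, and each of these calls held in all 12 fits that left out 1 library. With length-scaled TPM the call of Stmn2 against Ctr was lost (log2 fold change 1.49, adjusted p = 0.220). Stmn2, a protein of growing neurites, was at 0.106 ± 0.0674 CPM in Ctr, 0.605 ± 0.246 in EZH2i, 0.855 ± 0.104 in IFN-γ (adjusted p = 0.00372 against Ctr) and 5.03 ± 2.06 in IFN-γ + EZH2i (adjusted p = 0.000572 against EZH2i). It was also called higher in IFN-γ + EZH2i than in IFN-γ (log2 fold change 2.54 ± 0.42, adjusted p = 0.0321), in 6 of the 12 fits. That call was lost with length-scaled TPM (adjusted p = 0.132), with the compared libraries alone (0.114) and with protein-coding transcripts alone (0.0721). Stmn2 was the only gene of the neuron and interneuron lists called in a single comparison of EZH2i with its control. Syt1, a calcium sensor of vesicle release, was at 1.51 ± 0.264 CPM in Ctr, 2.98 ± 0.28 in EZH2i, 6.25 ± 1.66 in IFN-γ (adjusted p = 0.000615 against Ctr) and 12.2 ± 4.44 in IFN-γ + EZH2i (adjusted p = 0.000479 against EZH2i). Of the defining neuron markers, Rbfox3, the neuronal nuclear antigen NeuN, was at 1.78 CPM in Ctr, 3.60 in EZH2i, 1.25 in IFN-γ and 2.96 in IFN-γ + EZH2i, and was not called in any comparison. Slc17a6, the vesicular glutamate transporter, was at 0 counts in Ctr and at a mean of 0.342 CPM in IFN-γ + EZH2i, its highest group. The sum of 13 GABAergic interneuron markers ranged from 346 to 596 CPM over all libraries, with overlap between all groups, but Lhx6, Dlx6 and Slc32a1 of this list were called higher in the EZH2i effect averaged over both IFN-γ levels. Slc32a1, the vesicular GABA transporter, was at 0.0836 ± 0.0835 CPM in Ctr, 0.296 ± 0.103 in EZH2i, 0.113 ± 0.0915 in IFN-γ and 0.867 ± 0.476 in IFN-γ + EZH2i. Gad2, the other defining marker, was at 0.753, 2.07, 1.46 and 2.49 CPM in the same order and was not called. Calb2, calretinin, was the only interneuron marker called with IFN-γ, at 0.190 ± 0.0435 CPM in Ctr and 0.921 ± 0.513 in IFN-γ (adjusted p = 0.0205).

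Markers of other cells were present as well. The sum of 7 astrocyte markers ranged from 1340 to 2880 CPM over all libraries and overlapped between all groups. Gfap of this list was at 119 ± 77.5 CPM in Ctr, 262 ± 131 in EZH2i, 187 ± 131 in IFN-γ and 367 ± 202 in IFN-γ + EZH2i, and no astrocyte marker was called in any comparison. The sum of 8 markers of differentiating oligodendrocytes moved with the inhibitor: it ranged from 1930 to 2400 CPM in Ctr against 1130 to 1670 in EZH2i, and from 1790 to 2150 in IFN-γ against 1090 to 1650 in IFN-γ + EZH2i. Mbp, myelin basic protein, was the marker of this list called lower, in the averaged EZH2i effect (-0.93 ± 0.18, adjusted p = 0.0225). The sum of 5 endothelial markers also moved with the inhibitor, from 14.0 to 21.2 CPM in Ctr against 25.1 to 39.9 in EZH2i, and from 13 to 19.5 in IFN-γ against 21.1 to 36.3 in IFN-γ + EZH2i. Most of it was Flt1, a VEGF receptor, and no gene of the list was called, while Pecam1 and Cldn5 were under 1 CPM in the mean of every group. The sum of 6 pericyte and fibroblast markers was at most 4.21 CPM in any library, with 1.10 to 2.14 in Ctr below the other 3 groups, and Lum of this list was called higher in both IFN-γ comparisons. The sum of 5 Schwann cell markers ranged from 315 to 499 CPM, with 318 to 327 in Ctr below 352 to 392 in IFN-γ, and Pmp22 of this list was called lower in both IFN-γ comparisons. The sum of 7 microglia markers was at most 1.68 CPM in any library. The part of other cells in the precursor results was not tested. In bulk RNA, more cells of a type and more RNA per cell cannot be told apart.

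**Figure D1:**
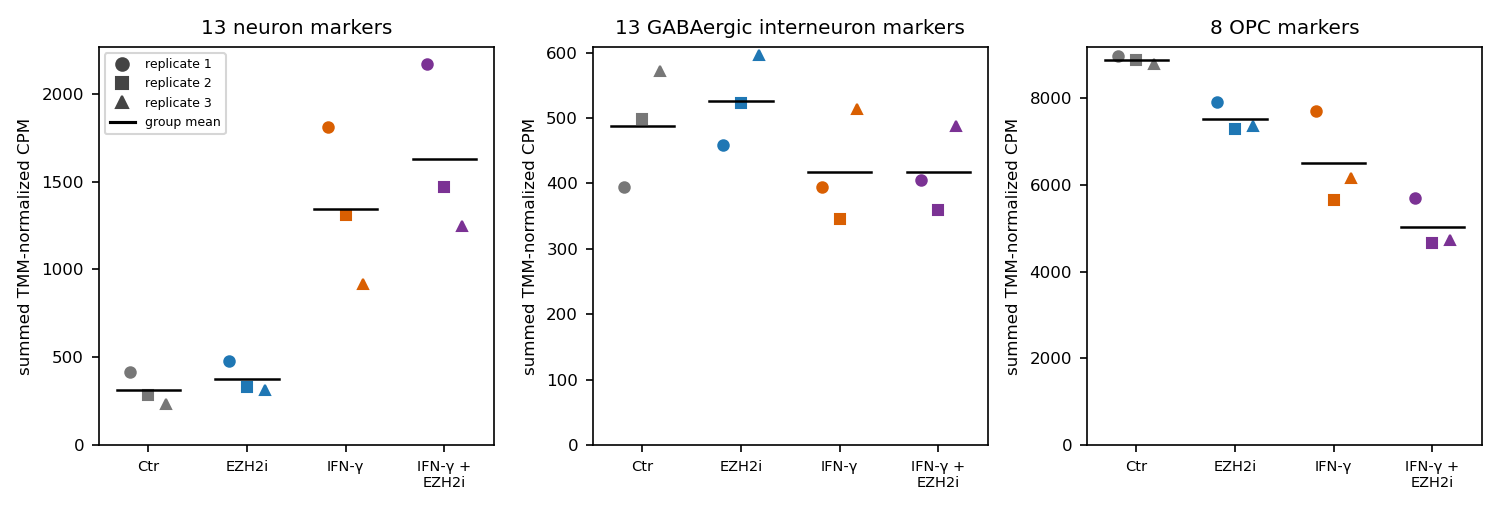
Summed TMM-normalized CPM of the neuron, GABAergic interneuron and OPC markers in each of the 12 libraries (points, shaped by replicate number, with the group mean as a bar and linear axes from 0). The neuron sum of every library with IFN-γ is at 915 or above and that of every library without it at 480 or below, the interneuron sums overlap in all groups, and the OPC sum is highest in Ctr.

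Per transcript length, Vgf was the most abundant member in every group. In Ctr, the mean TPM was 18.4 for Vgf, 5.45 for Npy and 2.80 for Penk, and each of the other 7 members was at or below 0.430. With IFN-γ + EZH2i, the mean was 117 for Vgf, 62.1 for Penk, 13 for Sst, 11.0 for Npy and 1.42 for Adcyap1, and the other 5 were at or below 0.254. Libraries of a group fell in a like order for several members. By TMM-normalized CPM, those numbered 1 were the highest and those numbered 3 the lowest for Vgf, Penk and Npy in all 4 groups, and for Adcyap1 in both groups with EZH2i. By TPM the order was the same but for 2 groups: the IFN-γ library numbered 2 was the highest for Vgf (142, 153 and 44.3 TPM), and the EZH2i library numbered 2 was the lowest for Adcyap1 (1.39, 0.463 and 0.656 TPM). The neuron marker sum in CPM followed the first order too, and the libraries numbered 3 were also the deepest. The part of litter, cell makeup and depth in this order was not tested.

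**Figure D2:**
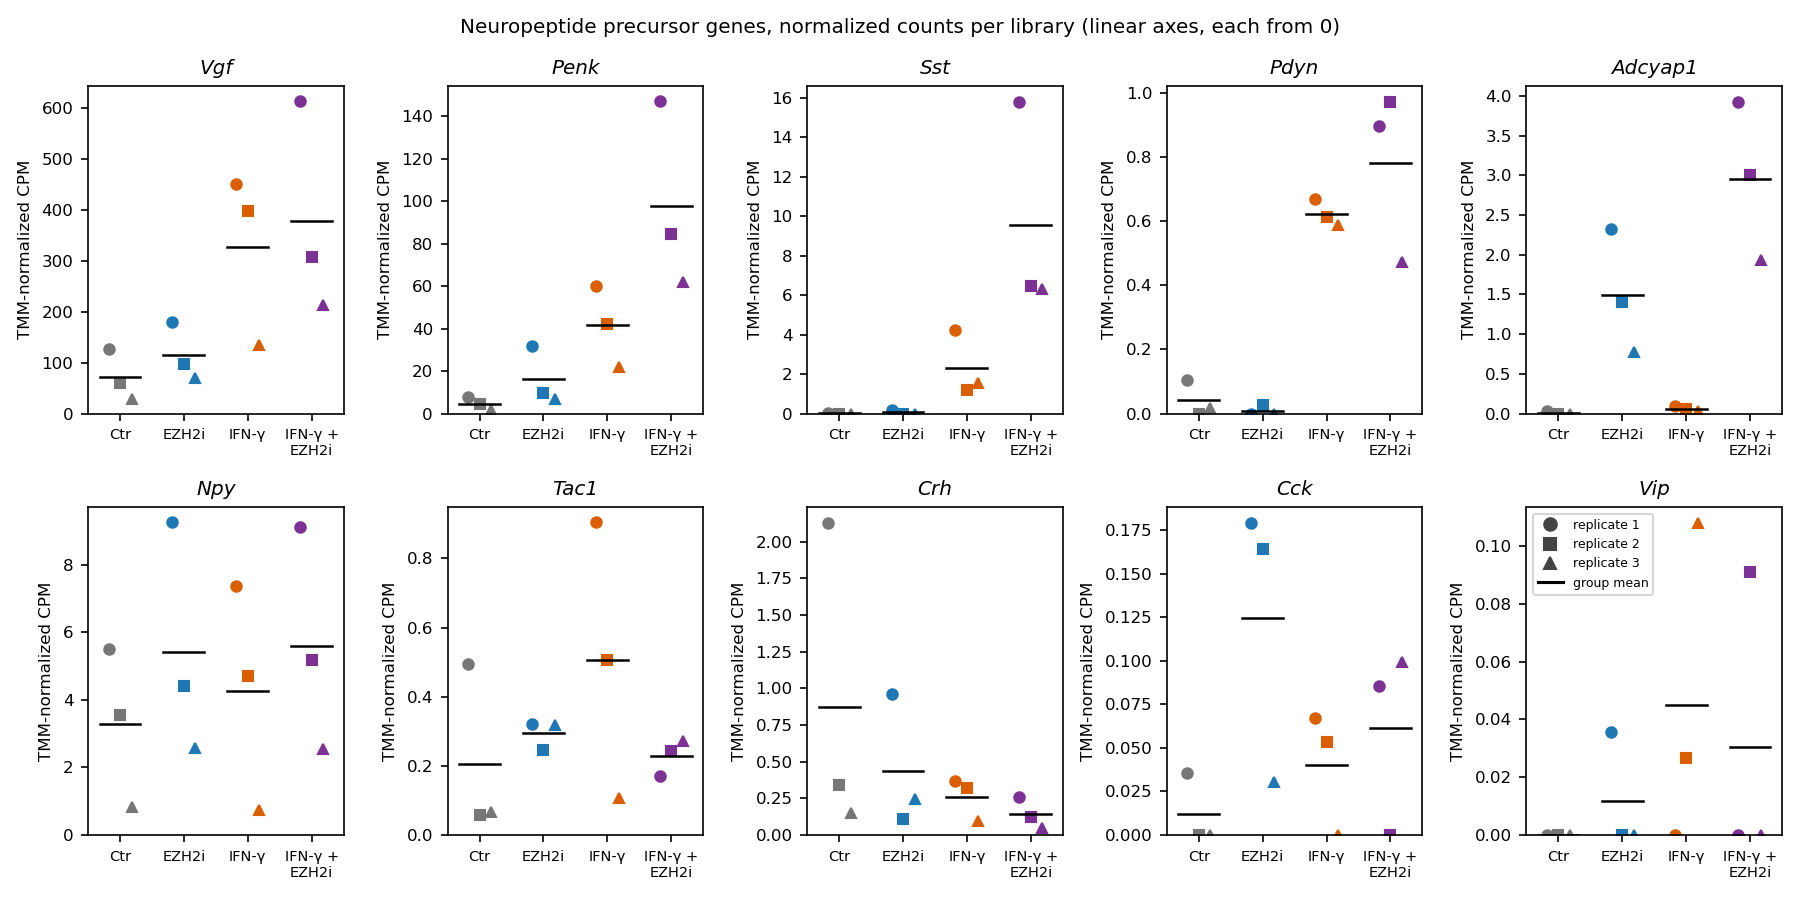
TMM-normalized CPM of the 10 precursor genes in the 12 libraries, 1 panel per gene with its own linear axis from 0. Points are libraries, shaped by replicate number, and bars are group means. Vgf, Penk, Sst and Pdyn are high in the libraries with IFN-γ, Adcyap1 in those with EZH2i, and Npy overlaps in all groups.

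EZH2i raised Adcyap1, which encodes PACAP, a peptide of the VIP and secretin family that acts through receptors coupled to cAMP, and lies at chr17:93199017-93206537 on the plus strand (GRCm38). Its counts were 1, 0 and 0 in Ctr, 65, 51 and 51 in EZH2i, 3, 2 and 2 in IFN-γ, and 92, 99 and 78 in IFN-γ + EZH2i. Thus the gene was at or under 3 counts in all 6 libraries without the inhibitor and at 51 or more in all 6 with it. As CPM, the EZH2i libraries held 2.32, 1.40 and 0.774, and the IFN-γ + EZH2i libraries 3.93, 3.01 and 1.94. With 3 counts per library as the floor, Adcyap1 was at least 13.8-fold higher in EZH2i than in Ctr (adjusted p = 0.00616) and at least 39.2-fold higher in IFN-γ + EZH2i than in IFN-γ (adjusted p = 0.00552). The averaged effect had an adjusted p of 0.000119. Without Ctr replicate 3, the deepest Ctr library, the adjusted p of EZH2i versus Ctr was 0.0574, while the comparison with IFN-γ and the averaged effect held when any of the 12 libraries was left out. A requirement of at least 10 counts in every library removes the gene from the test. Of 13 neuron markers, 9 were above 0 in the averaged effect, while Elavl3, Dcx, Nefm and Syn1 were below it. Of the 13, 3 were called, all higher: Snap25, Stmn2 and Syt1. The call of Syt1 held in 5 of 12 fits that left out 1 library. Of the 11 interneuron markers tested, 9 were above 0 and 3 were called, all higher: Lhx6, Dlx6 and Slc32a1. Mbp was lower in the averaged effect. At either level of IFN-γ, the endothelial and oligodendrocyte marker sums did not overlap between libraries with and without the inhibitor, by the ranges above. The part of such cells in this result was not tested.

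Adcyap1 was the only member called with the inhibitor. 1 member was called higher in EZH2i versus Ctr, beside 0.405% of all genes tested, 1 in IFN-γ + EZH2i versus IFN-γ, beside 0.347%, and 1 in the averaged effect, beside 2.03%. No member was called lower in any of them, and of the 18995 genes tested 0, 1 and 36 were called lower in this order. The lowest library of the group with the inhibitor was above the highest of the group without it for 1 member in EZH2i versus Ctr, beside 7.37% of genes, and for 3 members (Adcyap1, Sst and Penk) in IFN-γ + EZH2i versus IFN-γ, beside 6.08%.

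IFN-γ raised 4 members against Ctr, namely Sst, Pdyn, Penk and Vgf, and none was called lower. Of all genes tested, 6.65% were called higher in this comparison, and 399 of 18995 were called lower. All 4 had no overlap between the groups, which was so for 13.5% of genes. In IFN-γ + EZH2i versus EZH2i, 3 members were called higher, Sst, Pdyn and Penk, beside 5.9% of genes, and 4 had no overlap, the fourth being Vgf, beside 11.8%. The neuron marker sum moved with each of them, by the ranges given above, as did Tubb3, Stmn2 and Syt1, and its part in these increases was not tested.

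Of the opioid precursors, Penk encodes proenkephalin, the source of the enkephalins that act on delta and mu receptors, and lies at chr4:4133531-4138819 on the minus strand. Its level was 7.84, 4.69 and 1.53 CPM in Ctr, 31.7, 9.78 and 6.92 in EZH2i, 60.2, 42.4 and 21.9 in IFN-γ, and 147, 84.6 and 61.8 in IFN-γ + EZH2i. Every IFN-γ library was thus above every Ctr library, every IFN-γ + EZH2i library was above every library of the other groups, and EZH2i overlapped both Ctr and IFN-γ. Penk was 8.86-fold higher in IFN-γ than in Ctr by the means (log2 fold change 3.17 ± 0.70 SE, adjusted p = 0.0127), and 6.05-fold higher in IFN-γ + EZH2i than in EZH2i (2.61 ± 0.67, adjusted p = 0.0306). Without Ctr replicate 2 the adjusted p against Ctr was 0.0636. Without replicate 1 of the control group the log2 fold changes were larger, 3.83 against Ctr and 3.55 against EZH2i. The second call held in 7 of 12 fits that left out 1 library and was lost without Ctr 2, EZH2i 2, EZH2i 3, IFN-γ + EZH2i 1 or IFN-γ + EZH2i 2 (highest adjusted p 0.133), and with length-scaled TPM (adjusted p = 0.0751). A noncoding gene on the opposite strand, A830012C17Rik, shares 499 bases with Penk, and its highest mean was 0.367 CPM, in IFN-γ + EZH2i.

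Pdyn encodes prodynorphin, the source of the dynorphins that act on kappa receptors, and lies at chr2:129686565-129699844 on the minus strand. Its counts were 3, 0 and 1 in Ctr, 0, 1 and 0 in EZH2i, 20, 23 and 38 in IFN-γ, and 21, 32 and 19 in IFN-γ + EZH2i. The 6 libraries with IFN-γ held 19 counts or more, and the 6 without it 3 or fewer. Pdyn was at least 5.72-fold higher in IFN-γ than in Ctr (adjusted p = 0.00530) and at least 9.97-fold higher in IFN-γ + EZH2i than in EZH2i (adjusted p = 0.000553), and both calls held in all 12 fits that left out 1 library. As CPM, the libraries held 0.670, 0.613 and 0.586 in IFN-γ and 0.897, 0.972 and 0.472 in IFN-γ + EZH2i, which overlap (log2 fold change 0.32 ± 0.53, adjusted p = 0.999). With the inhibitor alone there was thus no level from which a fold change could be given, since Ctr and EZH2i were both at the floor.

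Sst, which encodes preprosomatostatin, a peptide that inhibits hormone and transmitter release, and lies at chr16:23889573-23890958 on the minus strand, rose from near absence. Its counts were 1, 0 and 0 in Ctr, 5, 0 and 0 in EZH2i, 126, 44 and 99 in IFN-γ, and 370, 213 and 254 in IFN-γ + EZH2i. The 6 libraries with IFN-γ held at least 44 counts, and the 6 without it at most 5. Sst was at least 21.2-fold higher in IFN-γ than in Ctr (adjusted p = 0.00212). Against EZH2i, where 2 of 3 libraries were at 0, IFN-γ + EZH2i had a log2 fold change of 7.72 ± 1.01 (adjusted p = 0.000301). The size of this change depends on the 5 counts of EZH2i replicate 1: over the fits that left out 1 library it ranged from 6.83 to 11.56, and the highest value came without that library, when EZH2i had no counts. Both calls held in all 12 fits that left out 1 library, but with at least 10 counts required in every library neither Sst nor Pdyn is tested. The CPM was 4.22, 1.17 and 1.53 in IFN-γ and 15.8, 6.47 and 6.31 in IFN-γ + EZH2i.

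Vgf encodes a granin-like precursor of dense-core granules that is induced by growth factors in neurons, and lies at chr5:137026392-137033351 on the plus strand. Its level was 127, 59.6 and 27.9 CPM in Ctr, 179, 96.7 and 69.9 in EZH2i, 451, 397 and 134 in IFN-γ, and 614, 308 and 213 in IFN-γ + EZH2i. IFN-γ lay above Ctr without overlap, with the lowest IFN-γ library close to the highest Ctr library, and IFN-γ + EZH2i lay above EZH2i. Vgf was 4.57-fold higher in IFN-γ than in Ctr (log2 fold change 2.19 ± 0.62, adjusted p = 0.0476), a call near the threshold: it held in 4 of the 12 fits that left out 1 library, those without Ctr 1, EZH2i 1, IFN-γ 3 or IFN-γ + EZH2i 1, and the adjusted p reached 0.188 in the others. The log2 fold change was 2.90 without Ctr 1. It was also lost with RLE factors (0.0535), with at least 10 counts in every library (0.0504) and with the 6 libraries compared alone (0.0790). In IFN-γ + EZH2i versus EZH2i the increase was 3.28-fold by the means and was not called (1.71 ± 0.61, adjusted p = 0.132). Between EZH2i and Ctr the libraries overlapped (0.69 ± 0.60, adjusted p = 0.960).

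With IFN-γ present, Sst and Penk had higher means with the inhibitor than without it, and the main test called neither difference. Sst was 4.13-fold higher in IFN-γ + EZH2i than in IFN-γ by the means (log2 fold change 2.06 ± 0.68, adjusted p = 0.433), without overlap. Same-numbered cultures differed by 3.74, 5.52 and 4.13 times. Penk was 2.36-fold higher (1.24 ± 0.63, adjusted p = 0.852), also without overlap, and same-numbered cultures differed by 2.44, 2.0 and 2.82 times. Among these groups the replicate numbers were taken to pair the cultures, by the correlation of same-numbered libraries. Same-numbered libraries of these groups also share their rank in depth, which that correlation cannot tell from a shared litter. With the replicate block the adjusted p was 0.00143 for Sst and 0.00586 for Penk. The block was fitted on all 12 libraries, so the unpaired Ctr libraries also entered it. A block fit without Ctr was not run. Likewise Adcyap1 was 1.98-fold higher in IFN-γ + EZH2i than in EZH2i (1.00 ± 0.47, adjusted p = 0.297), by 1.69, 2.15 and 2.50 times between same-numbered cultures (adjusted p = 0.00943 with the block). For Vgf in this last comparison the same-numbered ratios were 3.43, 3.18 and 3.04 (adjusted p = 5.42e-05 with the block). DESeq2 without the block called none of these 4 differences.

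Whether the effect of one agent depended on the other was tested by the interaction. edgeR called 0 genes (0.0% of all tested), with 127 at an unadjusted p under 0.05, and DESeq2 called 0, with 218 at an unadjusted p under 0.05. For Penk, the change by EZH2i with IFN-γ minus that without it was -0.57 ± 0.91 on the log2 scale. For Vgf it was -0.48 ± 0.84. For Adcyap1, Sst and Pdyn the interaction rests on groups at or near 0 counts, and no value is given.

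**Figure D3:**
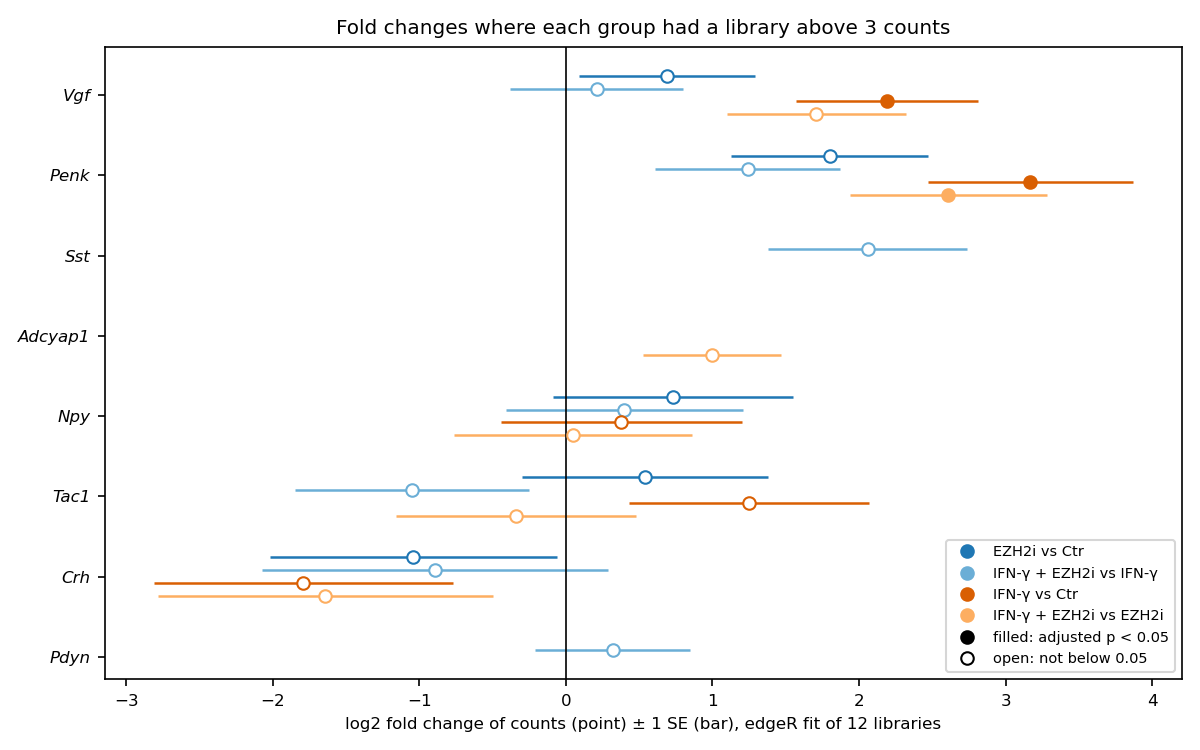
Log2 fold changes of 8 precursor genes (points) from the edgeR fit with 1 SE (bars) derived from its F statistic, in 4 comparisons between groups. Comparisons in which a group had at most 3 counts in each library, and that of Sst against EZH2i, are left out. Filled points passed the test, which are Vgf and Penk in IFN-γ versus Ctr and Penk in IFN-γ + EZH2i versus EZH2i, and the 4 values of Npy lie within 1 SE of 0.

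Npy, the precursor of neuropeptide Y, a peptide of interneurons and of feeding circuits, was detected in all libraries and was not called in any comparison. Its level was 5.50, 3.56 and 0.831 CPM in Ctr, 9.26, 4.41 and 2.57 in EZH2i, 7.37, 4.71 and 0.741 in IFN-γ, and 9.10, 5.17 and 2.53 in IFN-γ + EZH2i. The spread between litters within a group was larger than the differences between group means, which were 3.29 ± 2.34, 5.41 ± 3.46, 4.28 ± 3.34 and 5.60 ± 3.31 in this order. The averaged log2 fold change with EZH2i was 0.56 ± 0.58 (adjusted p = 0.793).

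Tac1, the precursor of substance P and neurokinin A, had 1 to 14 counts per library in Ctr, 9 to 21 in EZH2i, 7 to 27 in IFN-γ and 4 to 11 in IFN-γ + EZH2i. All groups overlapped, and the lowest adjusted p of its 4 comparisons was 0.487, for IFN-γ versus Ctr (1.25 ± 0.82). Crh, the precursor of corticotropin-releasing hormone, had 60, 6 and 9 counts in Ctr, 27, 4 and 16 in EZH2i, 11, 12 and 6 in IFN-γ, and 6, 4 and 2 in IFN-γ + EZH2i. The groups overlapped in each of the 4 comparisons, and its log2 fold change in IFN-γ versus Ctr was -1.79 ± 1.02 (adjusted p = 0.395). A single library, Ctr replicate 1, held 60 of the 75 counts of Ctr, and without it the value was 0.14. No difference of Tac1 or Crh was detectable at this depth.

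Vip, a relative of Adcyap1 that encodes vasoactive intestinal peptide, and Cck, the precursor of cholecystokinin, did not pass the filter. Vip had 0, 0 and 0 counts in Ctr, 1, 0 and 0 in EZH2i, 0, 1 and 7 in IFN-γ, and 0, 3 and 0 in IFN-γ + EZH2i. Cck had 1, 0 and 0 counts in Ctr, 5, 6 and 2 in EZH2i, 2, 2 and 0 in IFN-γ, and 2, 0 and 4 in IFN-γ + EZH2i. Both were thus near the limit of detection in all groups, and they were left out of the main test. Without the filter on low counts neither was called in any comparison.

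The transcripts behind these sums differed between members. For Npy, Sst, Crh and Vip all counts were given to 1 transcript. A single transcript took 92.3% of the counts of Penk, and another 84.2% of those of Vgf. For Adcyap1, 36.7% of the counts in the 6 libraries with at least 20 counts were given to a transcript with a retained intron, with a range of 24.3 to 51.6% between libraries. The calls of Adcyap1 in the inhibitor comparisons held when protein-coding transcripts alone were summed. Such shares are Salmon's estimates and rest on few counts here.

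Next to the members, genes of the same pathway were counted from fixed lists. Of all genes tested, 0.405% were called higher in EZH2i versus Ctr, 0.347% in IFN-γ + EZH2i versus IFN-γ and 2.03% in the averaged effect. In IFN-γ versus Ctr 6.65% were, and in IFN-γ + EZH2i versus EZH2i 5.9%. Lists this short with none called in a comparison of EZH2i with its control are near the share of all genes. Of 63 other neuropeptide and peptide hormone precursors, 22 passed the filter. With EZH2i versus Ctr, 1 was higher and none lower: Npvf, the precursor of RFamide peptides, rose from 0.961 ± 0.351 to 3.06 ± 0.361 CPM (log2 fold change 1.69 ± 0.28, adjusted p = 0.0244). This call was lost in 5 of 12 fits that left out 1 library (Ctr 2, Ctr 3, EZH2i 1, EZH2i 2 or IFN-γ + EZH2i 2). It was also lost with the compared libraries alone (adjusted p = 0.139). The averaged effect of Npvf, 1.36 ± 0.19 (adjusted p = 0.00299), held in all 12 fits that left out 1 library. No gene of the list was called in IFN-γ + EZH2i versus IFN-γ. In IFN-γ versus Ctr, 3 of the 22 were higher and none lower, and these were chosen for naming after their values were seen. Grp, the precursor of gastrin-releasing peptide, rose from 0.236 ± 0.139 to 4.66 ± 2.78 CPM (4.45 ± 0.59, adjusted p = 0.000345). Nts, the precursor of neurotensin, was at least 10.7-fold higher (adjusted p = 0.00812), and Npvf was at 2.26 ± 0.234 CPM (adjusted p = 0.0124). The call of Npvf was lost without Ctr 2 (adjusted p = 0.0506) and with the compared libraries alone (0.081). In IFN-γ + EZH2i versus EZH2i, 3 were higher and none lower: Grp again, Nts in 9 of 12 fits that left out 1 library, and Pthlh, the precursor of parathyroid hormone-related protein, from 0.102 ± 0.0436 to 0.523 ± 0.178 CPM, in 5 of 12 fits that left out 1 library. Nts and Pthlh passed the filter only through the groups with IFN-γ, so a call with that agent could only be a rise. The median log2 fold change of the 22 was 0.37 in EZH2i versus Ctr and 0.32 in IFN-γ + EZH2i versus IFN-γ. It was 0.29 in IFN-γ versus Ctr and 0.01 in IFN-γ + EZH2i versus EZH2i. Over all genes tested the median was between -0.01 and 0.01 in each of these comparisons.

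All 24 genes of peptide processing and the secretory granule passed the filter. None was called in either comparison of EZH2i with its control. In the averaged EZH2i effect 3 rose and none fell: Cadps2, which primes dense-core granules for release (0.65 ± 0.13, adjusted p = 0.0212), Pam, which amidates peptides (0.53 ± 0.11, adjusted p = 0.0257), and Snap25, a SNARE protein that is also on the neuron list (1.13 ± 0.18, adjusted p = 0.00716). Snap25 held in all 12 fits that left out 1 library, Pam in 7 and Cadps2 in 6. Against Ctr, IFN-γ raised 3 of the 24 and lowered none, and these too were named after their values were seen. Pcsk1, the convertase PC1/3 that cuts proenkephalin and many other precursors, rose from 0.115 ± 0.104 to 3.35 ± 1.76 CPM (4.54 ± 0.69, adjusted p = 0.000991), and its level was 3.93 ± 0.478 in IFN-γ + EZH2i against 0.332 ± 0.239 in EZH2i. Pcsk1 too passed the filter only through the groups with IFN-γ. The granule protein Scg3 rose from 66.0 ± 7.34 to 127 ± 25.8 CPM (adjusted p = 0.00104) and Cadps2 from 7.53 ± 2.09 to 15.7 ± 1.28 (adjusted p = 0.00270). In IFN-γ + EZH2i versus EZH2i, 4 of the 24 were higher, namely these 3 and the convertase Pcsk5 (0.81 ± 0.21, adjusted p = 0.0357, in 7 of 12 fits that left out 1 library), and 1 was lower, the carboxypeptidase Cpm (-1.32 ± 0.37, adjusted p = 0.0471, in 4 of 12). The convertase Pcsk2 and the carboxypeptidase Cpe, which trims peptide ends, were abundant in all groups, with group means of 28.4 to 37.6 and of 382 to 406 CPM, and were not called.

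Of a list of 28 genes for receptors of the member peptides and related proteins, 17 passed the filter. Among these were 5 that are not receptors of member peptides, namely the binding protein Crhbp, the accessory proteins Ramp1, Ramp2 and Ramp3, and Oprl1, the nociceptin receptor, and none of the 5 was called in any comparison. No gene of the list was called in either comparison of EZH2i with its control. In EZH2i versus Ctr 16 of the 17 had a positive log2 fold change, with a median of 0.79. In IFN-γ + EZH2i versus IFN-γ 13 did, with a median of 0.19. Vipr1, a receptor of VIP and PACAP, was higher in the averaged EZH2i effect (1.35 ± 0.29, adjusted p = 0.0311), in 2 of 12 fits that left out 1 library. IFN-γ raised 2 receptors and lowered 1, at both levels of EZH2i. Against Ctr, Crhr1 rose from 2.69 ± 2.15 to 18.2 ± 8.65 CPM (2.76 ± 0.59, adjusted p = 0.0106) and Crhr2 from 0.398 ± 0.240 to 2.11 ± 0.782 (2.41 ± 0.51, adjusted p = 0.00995). Both are receptors of corticotropin-releasing hormone and urocortins, both calls were lost without Ctr 2 or without Ctr 3, and that of Crhr2 also with length-scaled TPM (adjusted p = 0.117). Sstr2, a receptor of somatostatin, fell from 1.83 ± 0.458 to 0.439 ± 0.151 CPM (-2.05 ± 0.38, adjusted p = 0.00442), while Sst itself rose. In IFN-γ + EZH2i versus EZH2i, Crhr1 (2.41, adjusted p = 0.0206) was lost without EZH2i 2, EZH2i 3, IFN-γ + EZH2i 1 or IFN-γ + EZH2i 2, and Sstr2 (-1.66, adjusted p = 0.0126) without EZH2i 1, IFN-γ + EZH2i 2 or IFN-γ + EZH2i 3. Crhr2 (2.33, adjusted p = 0.00888) held in all 12 of these fits and was lost with length-scaled TPM (adjusted p = 0.266). Without replicate 1 of the control group Crhr1 was at 3.64 against Ctr and 3.02 against EZH2i, and Crhr2 at 3.02 against Ctr. Crh, which encodes a ligand of Crhr1 and Crhr2, was not called.

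Of 24 genes of the cAMP and activity response, all passed the filter. None was called in either comparison of EZH2i with its control, and Bdnf, a neurotrophin, was higher in the averaged effect (0.93 ± 0.19, adjusted p = 0.0243), in 4 of 12 fits that left out 1 library. In IFN-γ versus Ctr 4 were higher and 2 lower. Crem, a factor of the CREB family that binds the cAMP response element, rose from 5.34 ± 0.138 to 61.6 ± 9.09 CPM (3.53 ± 0.18, adjusted p = 4.62e-08), and Atf3, a stress-induced factor of the same wider family, from 1.52 ± 0.812 to 17.0 ± 4.12 (3.43 ± 0.37, adjusted p = 6.66e-05). Jun rose from 237 ± 45.5 to 506 ± 103 CPM, and the phosphodiesterase Pde4b from 97.1 ± 1.73 to 141 ± 23.9, the latter in 7 of 12 fits that left out 1 library. Fosb (-0.83 ± 0.23, adjusted p = 0.0404) and Pde4d (-0.54 ± 0.10, adjusted p = 0.00408) fell, Fosb in 6 of 12 such fits. In IFN-γ + EZH2i versus EZH2i, Crem, Atf3 and Jun were higher and Fosb and Pde4d lower, Fosb in 10 of 12 such fits. Fos was at 118 ± 39.2 CPM in Ctr and 116 ± 47.5 in IFN-γ and was not called, so that the list did not move in a single direction (median log2 fold change 0.04 in IFN-γ versus Ctr). Of the 9 genes of the REST complex, which silences neuronal genes in other cells, none was called in any comparison of EZH2i. Their median log2 fold change was -0.14 in EZH2i versus Ctr, -0.25 in IFN-γ + EZH2i versus IFN-γ and -0.22 in the averaged effect. In this order 2, 0 and 1 of the 9 were above 0. Kdm1a was higher in IFN-γ versus Ctr (0.57 ± 0.13, adjusted p = 0.0180, in 9 of 12 fits that left out 1 library). Rest itself was at 65.6 ± 5.68, 59.6 ± 5.80, 74.2 ± 9.24 and 59.9 ± 1.59 CPM in Ctr, EZH2i, IFN-γ and IFN-γ + EZH2i.

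**Figure D4:**
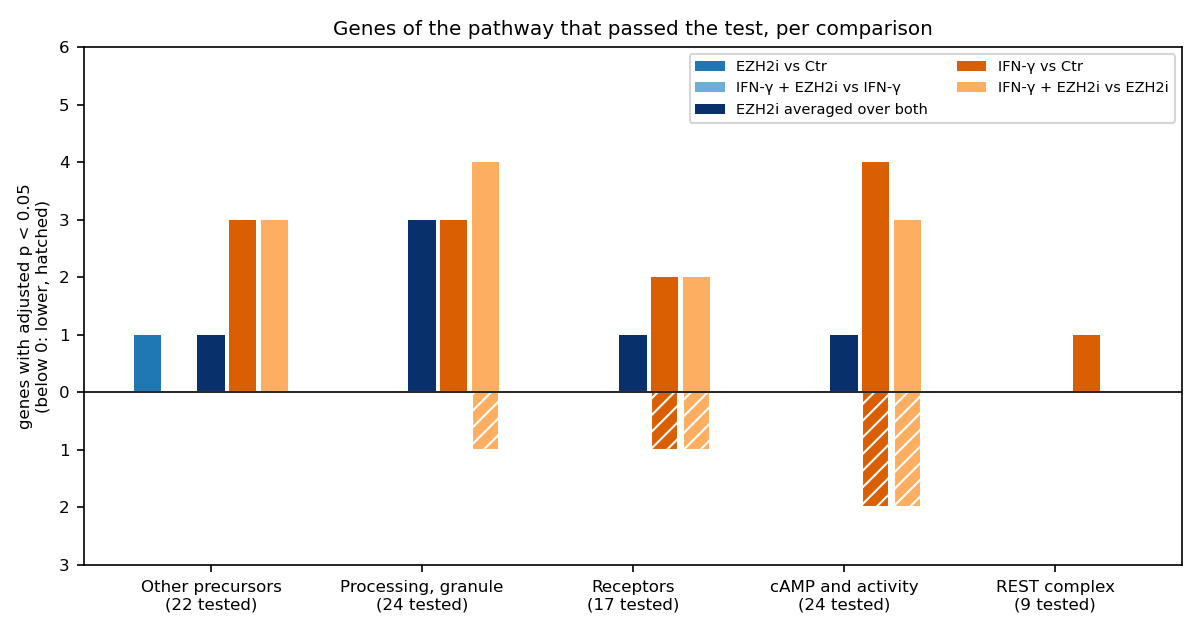
Number of genes of 5 lists (other precursors, processing and granule, receptors, cAMP and activity, REST complex) with an adjusted p under 0.05 in 5 comparisons, with higher genes above 0 and lower genes below it (hatched), and the number tested under each name. In these 5 lists the IFN-γ comparisons called up to 4 genes higher, EZH2i versus Ctr called Npvf alone, and IFN-γ + EZH2i versus IFN-γ called none.

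For the members with a mean of at least 1 CPM, the 3 genes of most similar pattern were found by the mean absolute difference of standardised log2 CPM over the 12 libraries, among 14680 genes. Nearest to Adcyap1 were Ebf3 (0.144 SD), Gata6 (0.153) and Foxd2os (0.154), beside a median of 1.11 over all genes. Ebf3 and Gata6 encode developmental transcription factors, and Gata6 was at 0.0118, 2.20, 0.154 and 2.89 CPM in Ctr, EZH2i, IFN-γ and IFN-γ + EZH2i. Nearest to Sst were Rbms1 (0.126 SD), Ifi209 (0.135), an interferon-inducible gene, and Fam20b (0.143). Nearest to Vgf were Nptx1 (0.146 SD), which encodes a secreted neuronal pentraxin, Bcl11b (0.148) and Sh2d5 (0.152). Nptx1 was at 174, 255, 669 and 860 CPM in the 4 groups, in the same order of groups as Vgf. Nearest to Penk were Adra1d (0.139 SD), Adamts14 (0.159) and Kcnj12 (0.175), and nearest to Npy were Ecel1 (0.153 SD), Nefh (0.197) and Cdkn1c (0.230). The 12 points of each gene share libraries, litters and depth, and so the likeness is a description.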

How the data were processed

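Bulk RNA-seq of 12 libraries was analysed. The authors quantified reads with Salmon 0.8.2, and per the labels STAR, DESeq2 and GRCm38 were also used. The deposited estimated counts per transcript are Salmon's read numbers before scaling, and the deposited TPM are scaled by the authors for effective length and depth. The authors also deposited 2 tables of DESeq2 fold changes and p-values, which were not used.

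Estimated counts were summed per gene with the GENCODE annotation, which held 100% of the transcripts, and were rounded. Levels are TMM-normalized CPM ± SD (n = 3). edgeR 4.0.16 (R 4.3.3) was run with its default filter on low counts and the group as the only term, on all 12 libraries, and a group with at most 3 counts in every library was taken as at the floor. A fold change given as at least a value divides the mean CPM by that of 3 counts per library. It is a bound relative to this set floor and not a confidence limit. Each SE of a log2 fold change was derived from the test, as its absolute value divided by the square root of the F statistic. The floor does not cover the spread between cultures or, where a library held 3 counts, all of the counting error. The scripts were tested on simulated data. Depth, from 17403896 to 66546017 counts, limits the precision of members under 1 CPM.

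Replicate numbers were checked by the correlation of same-numbered deviations from group means. These were 0.4381 to 0.5966 between IFN-γ + EZH2i and IFN-γ or EZH2i, over 0.1 for each number, which was taken as pairing. With Ctr they were 0.3578 to 0.4273 for number 1, 0.0070 to 0.0725 for number 2 and 0.4295 to 0.4912 for number 3. Since number 2 was under 0.1, no pairing was taken with Ctr. In EZH2i, IFN-γ and IFN-γ + EZH2i depth rose with the replicate number, while Ctr 2 was the shallowest library. The correlation thus cannot tell a shared litter from a shared order of depth.

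The members and gene lists were chosen with earlier results of these data known. Named genes were the members, up to 5 genes per list called with EZH2i at a mean of at least 0.5 CPM, the defining markers, and the 3 nearest genes per member at 1 CPM or more. Genes named for IFN-γ were chosen after their values were seen. The alternatives tried were RLE factors, DESeq2 1.42.0, no filter, at least 10 counts in every library, the replicate block, length-scaled TPM, no mitochondrial or rRNA genes, the compared libraries alone, protein-coding transcripts alone, all libraries for transcript shares, and leaving out each library.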

Additional observations from a re-analysis of the deposited data

How the results depend on the processing

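The members called in EZH2i versus Ctr, in IFN-γ + EZH2i versus IFN-γ and in the averaged EZH2i effect were 1 each, and became 0 in each with at least 10 counts in every library, which removes Adcyap1, and 3, 3 and 4 with the replicate block. That filter also left 1 member in IFN-γ versus Ctr and 1 in IFN-γ + EZH2i versus EZH2i, and the block gave 5 in the latter. The block was fitted on all 12 libraries, Ctr included. The numbers were taken to pair the cultures between IFN-γ + EZH2i and IFN-γ or EZH2i, with litter and order of depth not told apart. By the same rule they do not pair those of Ctr, where the libraries numbered 2 fell short. In comparisons with Ctr the block is thus a different fit and not a paired result. There it called Penk in EZH2i versus Ctr (adjusted p = 0.00176) and in the averaged effect (9.75e-05), Vgf in the same 2 comparisons (0.0347 and 0.0262), and Npy in the averaged effect (0.0349). The block changed no other call of a member.

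Leaving out 1 library gave 0 to 1 members called in EZH2i versus Ctr and 2 to 4 in IFN-γ versus Ctr. The fewest came without Ctr replicate 3 and without Ctr replicate 2. A change of sign was seen among values that were not called, when 1 library was left out. For Npy, the log2 fold change ranged from -0.14 to 1.05 in IFN-γ + EZH2i versus IFN-γ, from -0.27 to 1.01 in IFN-γ versus Ctr and from -0.50 to 0.68 in IFN-γ + EZH2i versus EZH2i. For Tac1 it ranged from -0.01 to 2.16 in EZH2i versus Ctr, and for Crh from -2.22 to 0.91 in EZH2i versus Ctr and from -2.34 to 0.14 in IFN-γ versus Ctr. For Vgf it ranged from -0.33 to 0.51 in IFN-γ + EZH2i versus IFN-γ, and for the Penk interaction from -1.23 to 0.38. The shares of transcripts moved by less than the spread between libraries when all libraries were used.

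Over all genes tested, the main test called 77 in EZH2i versus Ctr, 67 in IFN-γ + EZH2i versus IFN-γ, 422 in the averaged effect, 1662 in IFN-γ versus Ctr and 1533 in IFN-γ + EZH2i versus EZH2i. The block gave 771, 748, 2317, 4032 and 3661 in this order. For the first 3 comparisons, DESeq2 gave 298, 259 and 840, at least 10 counts in every library gave 29, 11 and 238, and length-scaled TPM gave 48, 31 and 276. With the compared libraries alone the first 2 counts were 33 and 7, and without a filter on low counts the first was 121. Leaving out 1 library gave 11 to 83, 10 to 65 and 245 to 415 for these 3. The low ends came without Ctr replicate 3, without IFN-γ replicate 2 and without IFN-γ + EZH2i replicate 2. The cause of these shifts was not tested. Depth limits Vip, Cck, Tac1, Crh and Pdyn, which were under 1 CPM in nearly all libraries.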
